A study of Danio rerio with 4 samples.

Results

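The 7 genes described here build the cell contacts of the early zebrafish embryo: the cadherins cdh1 and cdh2, the catenins ctnnb1, ctnnb2, ctnna1 and ctnnd1, and epcam. They were taken by gene symbol from a table of 31870 genes, and each symbol matched a single gene identifier. The table held RNA of zebrafish embryos at 0 and 6 hours post fertilisation (hpf), in 4 libraries of ribosomal-RNA-depleted total RNA. One library came from wild-type embryos (WT) and one from embryos labelled Mybx1, a maternal mutant of ybx1, at each of the 2 stages. The WT embryos are named only as wild-type, without a strain, the Mybx1 allele is not given in the sources used here, and neither is the number of embryos or clutches in a library. Each group is a single library, so no spread between replicates is known and no p-value was computed.

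E-cadherin, the product of cdh1, and N-cadherin, the product of cdh2, span the cell membrane and bind the same cadherin on the neighbouring cell. Inside the cell the cadherin tail holds beta-catenin, which binds alpha-catenin and through it actin, while delta-catenin binds closer to the membrane and holds the cadherin at the surface. Beta-catenin also acts in the nucleus as the coactivator of Wnt signalling, and in zebrafish maternal beta-catenin from ctnnb2 is needed to specify the dorsal axis. E-cadherin and Epcam are needed for epiboly, in which the blastoderm spreads over the yolk, and N-cadherin appears with the neural plate and mesoderm.

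The libraries rested on between 6042830 and 7570070 reads, recovered from the steps between low values. The ybx1 transcript itself was at 338 FPKM (fragments per kilobase of gene, scaled to library size) in WT and 11.9 in Mybx1 at 0 hpf, and at 2287 and 54.2 FPKM at 6 hpf. At least 27 and up to 7856 reads lay behind each value of the 7 genes. Intervals in parentheses are exact 95% counting intervals from those reads, and they cover counting error only. Rose, fell, higher and lower are used as calls for a difference of at least 2-fold on log2(FPKM + 1), counting only genes whose FPKM averaged 1 or more over the libraries compared, and all 7 genes passed that filter in each comparison. Markers of ovarian follicle cells were low: 9 genes summed to between 1.95 and 3.27 FPKM per library. Of these, star was at 0 in all 4 libraries, and lhcgr and fshr were at 0 in both 0 hpf libraries. Only a gene with the symbol FOXL2 passed the filter, at 2.76 FPKM in WT and 1.27 FPKM in Mybx1 at 0 hpf. Both values lay above those of cdh2 in the same libraries, 1.82 and 0.76 FPKM.

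Apart from cdh2, the adhesion genes were abundant in the egg. At 0 hpf those 6 genes lay between 121 and 717 FPKM in WT and between 145 and 708 FPKM in Mybx1, whereas cdh2 was at 1.82 and 0.76 FPKM. In WT eggs the order from the highest down was epcam, ctnnd1, cdh1, ctnna1, ctnnb2, ctnnb1 and cdh2. In Mybx1 eggs it was the same except that ctnnb2 stood above ctnna1. At 6 hpf ctnnb1 led in WT at 645 FPKM, with ctnnd1 at 561 FPKM next. In Mybx1 at 6 hpf ctnnd1 led at 490 FPKM, epcam followed at 372 FPKM, and ctnnb1 stood at 202 FPKM, below ctnnb2 and cdh1. Neighbours in these orders were close in places, with ctnnb1 1.11-fold above ctnna1 (1.05 to 1.17) in Mybx1 at 6 hpf and ctnna1 1.12-fold above ctnnb2 (1.07 to 1.18) in WT eggs. No counting interval of neighbouring levels included equality, but the spread between embryos of one group is not known.

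**Figure D1:**
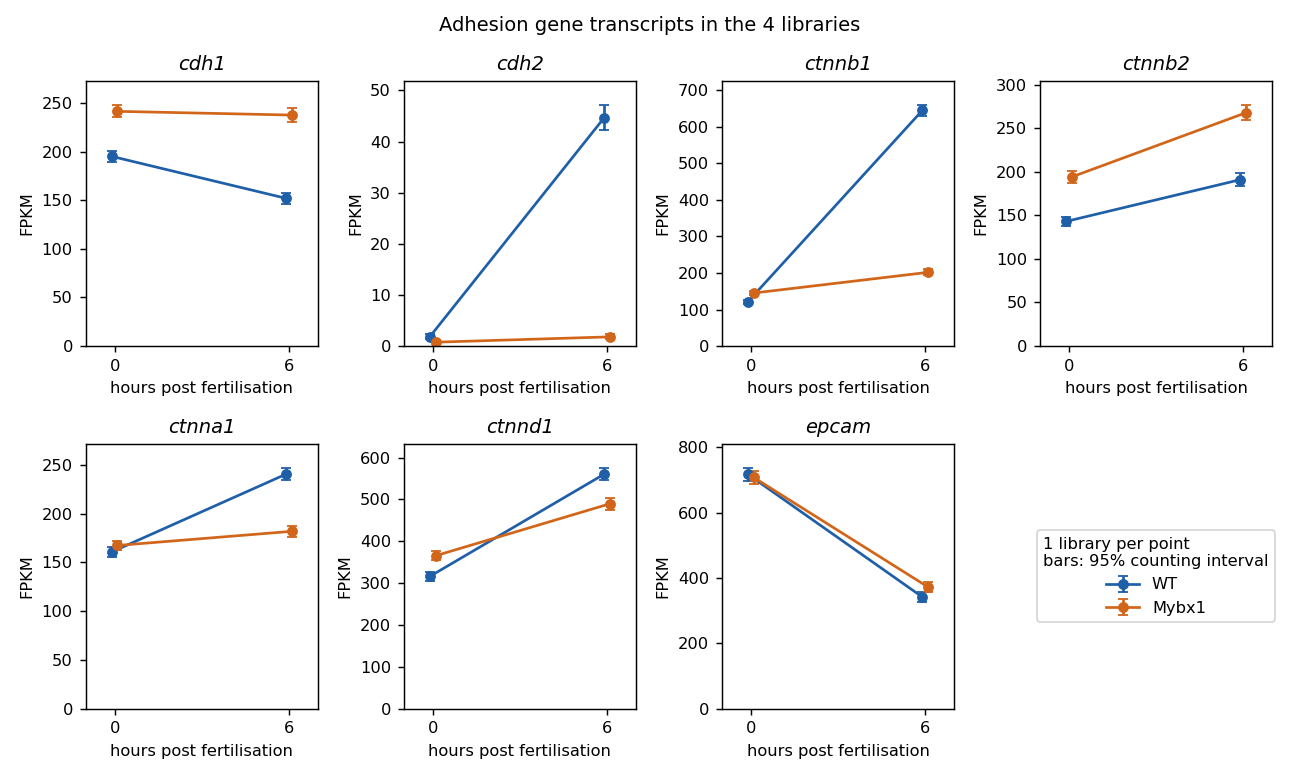
FPKM of the 7 adhesion genes (linear axis from 0, a separate scale for each gene) at 0 and 6 hours post fertilisation in WT and Mybx1, with 1 library per point and bars for the 95% counting interval. The lines of cdh2 and ctnnb1 climb in WT, to 44.7 and 645 FPKM, and reach 1.81 and 202 FPKM in Mybx1, while those of epcam descend in both genotypes (the WT fall is not called with median-ratio scaling).

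The E-cadherin gene cdh1 (ENSDARG00000102750) passed 2-fold in no comparison. Its level was 195 FPKM in WT and 241 FPKM in Mybx1 at 0 hpf, and 152 FPKM in WT and 237 FPKM in Mybx1 at 6 hpf. Both Mybx1 values lay above both WT values, and the highest level was 1.59-fold the lowest. From 0 to 6 hpf the ratio of FPKM was 0.779 in WT (0.744 to 0.815) and 0.984 in Mybx1 (0.946 to 1.02). At 6 hpf cdh1 was 1.56-fold above WT in Mybx1 (1.49 to 1.64), short of the 2-fold threshold. Median-ratio scaling divides each library by its median ratio to the geometric mean, over 16758 genes above 0 in all 4 libraries. With it the difference of log2 values for cdh1 at 6 hpf turned from 0.64 to -0.11. The difference from 0 to 6 hpf in WT turned from -0.36 to 0.38, so neither direction is independent of scaling.

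The N-cadherin gene cdh2 (ENSDARG00000018693) rose in WT and was not called in Mybx1. It was at 1.82 FPKM in WT eggs, 44.7 FPKM in WT at 6 hpf, 0.76 FPKM in Mybx1 eggs and 1.81 FPKM in Mybx1 at 6 hpf. The WT library at 6 hpf stood alone, and the other 3 values were all under 2 FPKM. The rise in WT was 24.5-fold (19.2 to 31.8). In Mybx1 the ratio was 2.37 (1.47 to 3.92), a difference of 0.67 on log2(FPKM + 1) that was not called. The interval lies above 1, and with a pseudocount of 0.1 the difference was 1.15 and was called, as it was at a 1.5-fold threshold. At 6 hpf cdh2 was 24.7-fold lower in Mybx1 than in WT (18.8 to 33.2). At 0 hpf it was at 67 reads in WT and 27 in Mybx1, a ratio of 0.418 (0.257 to 0.662) that was likewise not called, except with a pseudocount of 0.1 or at 1.5-fold. On the log2 scale the WT stage change of cdh2 exceeded that of Mybx1 by 3.34, at percentile 97.0 of 16534 genes.

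Markers of the tissues that use N-cadherin were, like cdh2, highest in WT at 6 hpf. This was not particular to those tissues. The 3 endoderm markers summed to 0.10 and 186 FPKM in WT and to 0.077 and 2.81 FPKM in Mybx1, at 0 and 6 hpf. The enveloping layer markers given below were also highest in WT at 6 hpf. Between the eggs the sums of the neuroectoderm and mesoderm lists stood above WT in Mybx1, where cdh2 stood below WT without a call, but single markers differed either way. The 6 matched genes of the neuroectoderm list summed to 0.58 FPKM in WT eggs, 697 FPKM in WT at 6 hpf, 5.78 FPKM in Mybx1 eggs and 21.2 FPKM in Mybx1 at 6 hpf. The 5 mesoderm genes summed to 4.75, 531, 14.9 and 16.6 FPKM in the same order. All 6 neuroectoderm genes rose in WT and were lower in Mybx1 than in WT at 6 hpf, and so were 4 of the 5 mesoderm genes, with tbx6 under the filter. Over all counted genes 24.2% rose in WT and 20.8% were lower in Mybx1 at 6 hpf. A gene near 0 in WT eggs passes the filter only by being high at 6 hpf. One near 0 in Mybx1 at 6 hpf is counted there only by being high in WT. The marker counts therefore favour these directions. In Mybx1 eggs, where cdh2 was below WT, msgn1 was higher at 11.7 against 0.13 FPKM, and so was one of 2 genes with the symbol ZIC2, at 3.72 against 0.090 FPKM. These 2 genes made up most of the Mybx1 egg sums. The mesoderm gene mespaa stood below WT like cdh2, at 2.93 against 4.62 FPKM, and was not called. In the eggs 3 mesoderm genes were at 0 in WT and 2 in Mybx1. Their part in the cdh2 result was not tested, and in RNA of whole embryos fewer cells of a type and less RNA per cell cannot be told apart.

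The share of N-cadherin in the sum of both cadherin transcripts differed between the 6 hpf libraries. Within a library the ratio of cdh2 to cdh1 FPKM does not depend on how libraries are scaled. It was 0.00935 in WT eggs (0.00723 to 0.0119) and 0.294 in WT at 6 hpf (0.276 to 0.314). In Mybx1 it was 0.00316 in eggs (0.00208 to 0.0046) and 0.00761 at 6 hpf (0.00569 to 0.00997). The cdh1 and cdh2 transcripts together came to 197 FPKM in WT at both stages, with cdh2 making up 0.926% at 0 hpf and 22.7% at 6 hpf. In Mybx1 cdh2 made up 0.315% of 242 FPKM at 0 hpf and 0.755% of 239 FPKM at 6 hpf.

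The 2 beta-catenin genes parted in WT and kept the same proportion in Mybx1. The level of ctnnb1 (ENSDARG00000014571) was 121 FPKM in WT eggs, 645 FPKM in WT at 6 hpf, 145 FPKM in Mybx1 eggs and 202 FPKM in Mybx1 at 6 hpf. Again 1 library, WT at 6 hpf, stood apart, more than 3-fold above the other 3. The rise in WT was 5.31-fold (5.04 to 5.59), against a ratio of 1.39 in Mybx1 (1.31 to 1.48) that was not called. At 6 hpf ctnnb1 was 3.19-fold lower in Mybx1 than in WT (3.05 to 3.35), although in eggs it was 1.19 times the WT level (1.12 to 1.27). The WT stage change exceeded the Mybx1 change by 1.93 on the log2 scale, at percentile 90.8.

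Its paralogue ctnnb2 (ENSDARG00000023472) was not called in any comparison. It was at 143 FPKM in WT eggs, 191 FPKM in WT at 6 hpf, 194 FPKM in Mybx1 eggs and 268 FPKM in Mybx1 at 6 hpf. Stage ratios were 1.34 in WT (1.27 to 1.41) and 1.38 in Mybx1 (1.32 to 1.45), and the Mybx1 level was 1.36 times that of WT at 0 hpf (1.29 to 1.43) and 1.40 times at 6 hpf (1.34 to 1.47). The difference at 6 hpf turned from 0.49 to -0.27 on the log2 scale with median-ratio scaling, and the WT stage change passed 2-fold there, at 1.15.

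Set against each other within a library, ctnnb1 stood at 0.850 times ctnnb2 in WT eggs (0.800 to 0.903) and at 3.38 times in WT at 6 hpf (3.23 to 3.53). In Mybx1 the ratio was 0.748 in eggs (0.708 to 0.790) and 0.753 at 6 hpf (0.716 to 0.793), and these 2 intervals overlap over most of their length. Expressed as a share, ctnnb1 made up 45.9%, 77.2%, 42.8% and 43.0% of beta-catenin FPKM in WT at 0 and 6 hpf and Mybx1 at 0 and 6 hpf. The sum of both genes was 264 and 835 FPKM in WT and 339 and 470 FPKM in Mybx1, a stage ratio of 3.16 against 1.38. The counting of reads that fit both paralogues is not stated in the labels, and part of either value could belong to the other gene.

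**Figure D2:**
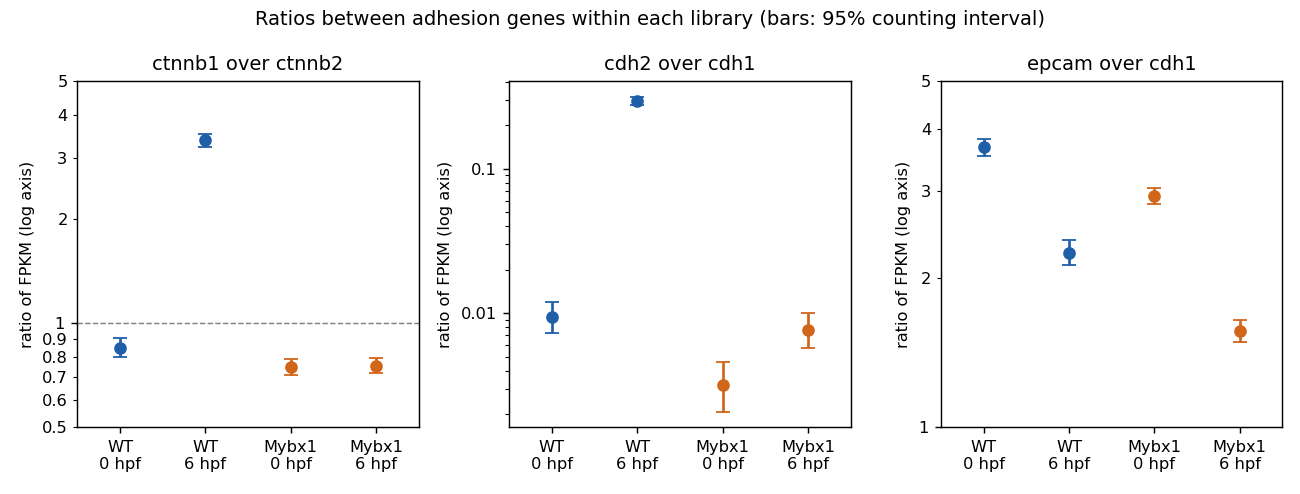
Ratios of FPKM between 2 adhesion genes within each of the 4 libraries (log axis, points for the ratio, bars for the 95% counting interval, blue for WT and orange for Mybx1). For ctnnb1 over ctnnb2 and for cdh2 over cdh1 the WT library at 6 hpf lies apart at 3.38 and 0.294, and for epcam over cdh1 the ratio is lower at 6 than at 0 hpf in both genotypes.

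The alpha- and delta-catenin genes passed 2-fold in no comparison on the FPKM scale. The alpha-catenin gene ctnna1 (ENSDARG00000102441) was at 161 FPKM in WT eggs, 241 FPKM in WT at 6 hpf, 167 FPKM in Mybx1 eggs and 182 FPKM in Mybx1 at 6 hpf. The 2 egg libraries were close, with a ratio of 1.04 whose interval reached 0.999 at its lower end and 1.09 at its upper end. Stage ratios were 1.497 in WT (1.44 to 1.56) and 1.09 in Mybx1 (1.04 to 1.13). The delta-catenin gene ctnnd1 (ENSDARG00000078233) was at 316 and 561 FPKM in WT and 366 and 490 FPKM in Mybx1, at 0 and 6 hpf. In both genotypes the 6 hpf library stood above the 0 hpf library. The WT library stood below Mybx1 at 0 hpf and above it at 6 hpf, an order that TPM reversed at 6 hpf (0.03 in place of -0.19 for Mybx1 against WT on the log2 scale). Stage ratios of ctnnd1 were 1.77 in WT (1.70 to 1.85) and 1.34 in Mybx1 (1.28 to 1.40). With median-ratio scaling the WT stage changes of both genes passed 2-fold, at 1.31 for ctnna1 and 1.56 for ctnnd1, and ctnna1 was called lower in Mybx1 at 6 hpf (-1.16 in place of -0.40).

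The ratios of catenin to E-cadherin transcripts within a library followed the same lines. In WT the ratio of ctnna1 to cdh1 went from 0.824 (0.791 to 0.859) to 1.58 (1.52 to 1.66), and that of ctnnd1 to cdh1 from 1.62 (1.55 to 1.69) to 3.69 (3.53 to 3.86). In Mybx1 they went from 0.694 (0.667 to 0.722) to 0.766 (0.734 to 0.799) and from 1.52 (1.46 to 1.58) to 2.06 (1.98 to 2.15). Both stage differences had the same sign in the 2 genotypes and were larger in WT.

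The gene epcam (ENSDARG00000040534), for the epithelial cell adhesion molecule, stood at 6 hpf below its 0 hpf level in both genotypes. The difference was called in WT and fell just short of the call in Mybx1. Its level was 717 FPKM in WT eggs, 342 FPKM in WT at 6 hpf, 708 FPKM in Mybx1 eggs and 372 FPKM in Mybx1 at 6 hpf. The 0 hpf libraries were high and the 6 hpf libraries low whichever the genotype. The fall in WT was 2.097-fold (1.99 to 2.21), and the Mybx1 level at 6 hpf was 1.90-fold below that at 0 hpf (1.81 to 2.001), just short of the call. Between genotypes the ratio was 0.987 at 0 hpf (0.949 to 1.03) and 1.09 at 6 hpf (1.02 to 1.16). In WT 41.1% of all counted genes fell and in Mybx1 7.1%, so a difference of -0.93 on the log2 scale put epcam at percentile 8.40 of Mybx1 genes, while -1.07 put it at percentile 39.5 of WT genes. With median-ratio scaling the WT value was -0.33 and no longer called, and epcam at 6 hpf was below WT in Mybx1 (-0.64 in place of 0.12).

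Relative to cdh1, epcam was 3.68-fold higher in WT eggs (3.54 to 3.83) and 2.25-fold in WT at 6 hpf (2.13 to 2.38). In Mybx1 the ratios were 2.93 (2.82 to 3.05) and 1.57 (1.49 to 1.65). The keratins and claudins that mark the enveloping layer had another pattern. Those 8 genes summed to 5.88 FPKM in WT eggs, 6226 FPKM in WT at 6 hpf, 9.84 FPKM in Mybx1 eggs and 186 FPKM in Mybx1 at 6 hpf, and all 8 were lower in Mybx1 than in WT at 6 hpf. Over all counted genes 20.8% were lower and 38.2% higher there. A gene near 0 in Mybx1 passes the filter there only by being high in WT, so this marker count favours lower calls. Of the 8 enveloping layer genes, 5 were at 0 in WT eggs and cldnf was at 0 in both egg libraries. Transcripts known from the egg (h1m, btg4, mos, buc and zp3b) summed to 2723 and 94.9 FPKM in WT and to 2644 and 1630 FPKM in Mybx1, at 0 and 6 hpf. All 5 fell in WT and 3 in Mybx1 (mos, zp3b and buc), where 41.1% and 7.1% of all counted genes fell. Of these, zp3b was already lower in Mybx1 eggs, at 121 FPKM against 354 FPKM in WT eggs. The part of either marker list in the epcam values was not tested.

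Counted together, 2 of the 7 genes rose from 0 to 6 hpf in WT (cdh2 and ctnnb1), where 24.2% of 15031 genes rose, and 1 fell (epcam), where 41.1% fell. In Mybx1 none of the 7 passed 2-fold, where 7.67% of 14790 genes rose and 7.1% fell. None was called between the 0 hpf libraries, where 8.85% of 13811 genes were higher and 6.7% lower in Mybx1. At 6 hpf 2 were lower in Mybx1 (cdh2 and ctnnb1) and none higher, where 38.2% of 15790 genes were higher and 20.8% lower. The WT stage change exceeded that of Mybx1 by at least 2-fold in 2 of the 7, against 19.6% of 16534 genes, and fell short of it by as much in none, against 35.3%. No test sets these counts apart from the background. With median-ratio scaling 5403 genes rose and 4205 fell in WT, in place of 3637 and 6183, and 3946 were higher and 5398 lower in Mybx1 at 6 hpf, in place of 6035 and 3284. Relative to the median of all genes the WT stage differences were 4.59 for cdh2, 2.97 for ctnnb1, 1.40 for ctnnd1, 1.15 for ctnna1, 0.99 for ctnnb2, 0.21 for cdh1 and -0.49 for epcam. The median of the 7 log2 differences was 0.58 in WT by stage, 0.42 in Mybx1 by stage, 0.21 between eggs and -0.19 between the 6 hpf libraries, beside medians over all counted genes of -0.57, -0.08, 0.07 and 0.49. The WT 6 hpf library enters 2 of these comparisons, so the WT rise and the Mybx1 shortfall of cdh2 and ctnnb1 both contain it.

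**Figure D3:**
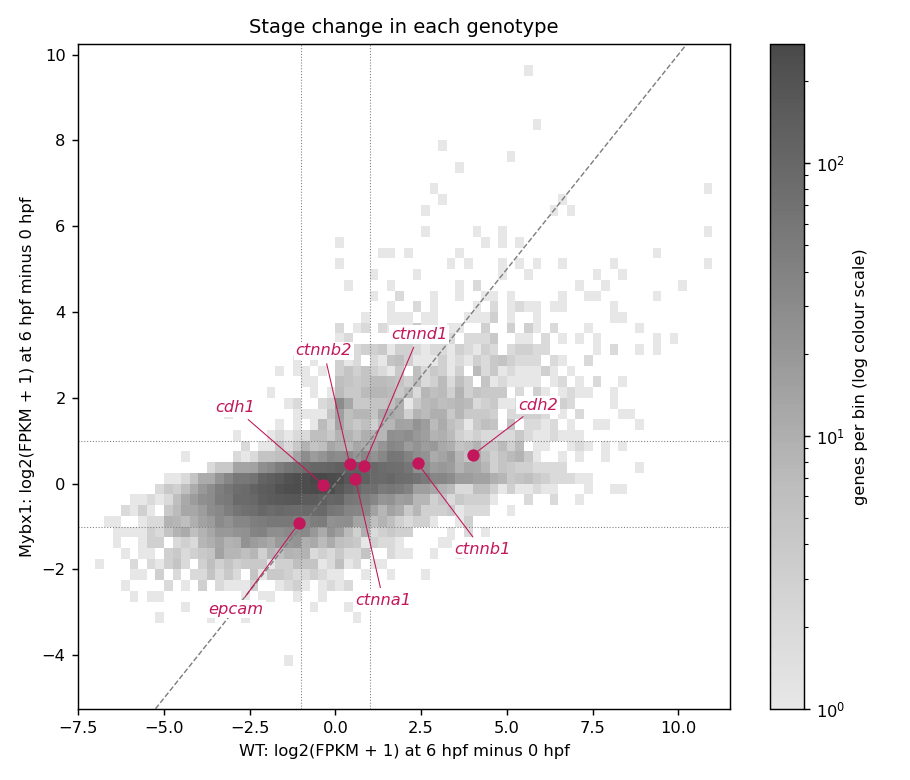
Difference of log2(FPKM + 1) from 0 to 6 hpf in WT (horizontal) and in Mybx1 (vertical), with grey squares for the number of genes in each bin over 16534 genes and red points for the 7 adhesion genes. Dotted lines mark 2-fold and the dashed line equal change, and epcam lies near the dashed line at -1.07 and -0.93, while cdh2 and ctnnb1 lie to the right at 4.02 and 2.40 in WT against 0.67 and 0.47 in Mybx1.

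Among other cadherins and protocadherins, a list of 41 matched genes, 11 rose in WT, 3 fell, 4 stayed within 2-fold and 23 were under the filter. In Mybx1 2 rose, none fell, 11 stayed within 2-fold and 28 were under the filter. A gene near 0 at 0 hpf passes the filter only by being high at 6 hpf, so these counts, and those of the lists below, favour rises. Between the 6 hpf libraries a gene near 0 in Mybx1 is counted only by being high in WT, and can then only be called lower. One near 0 in WT can only be called higher. These limits hold for the lists below too. Beside the counts of each list stand the shares over all counted genes. Of those 24.2% rose and 41.1% fell in WT, and 7.67% and 7.1% in Mybx1. Like cdh2, cdh6, a type II cadherin, was at 0.10 and 61.5 FPKM in WT and at 0.36 and 0.43 FPKM in Mybx1. One of 2 genes with the symbol PCDH1 was at 0.085 and 112 FPKM in WT, and it rose in Mybx1 from 0.26 to 3.58 FPKM. The 2 genes with the symbol pcdh8, a protocadherin of the paraxial mesoderm, went separate ways: one was at 0.42 and 75.4 FPKM in WT and at 0.14 and 0 FPKM in Mybx1, the other at 0.071 and 4.23 FPKM in WT and at 0.92 and 23.9 FPKM in Mybx1. One of 2 genes with the symbol PCDH18 was listed at 0 in WT eggs and at 29.0 FPKM in WT at 6 hpf, against 0.16 FPKM in Mybx1 at 6 hpf. At 6 hpf 4 listed genes were higher and 10 lower in Mybx1 (8 and 10 with TPM, 4 and 11 with median-ratio scaling). Over all counted genes 38.2% were higher and 20.8% lower there. In the eggs cdh18a was 5.60-fold higher in Mybx1 (4.02 to 7.98), at 13.3 FPKM against 2.37 FPKM, and clstn1, a calsyntenin, was 2.53-fold higher (2.30 to 2.79), at 56.0 against 22.1 FPKM.

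Of 38 matched genes for other catenins and junction partners, 9 rose and 9 fell in WT, against 1 and 0 in Mybx1, with 14 and 30 within 2-fold. With median-ratio scaling 11 rose and 4 fell in WT. At 6 hpf 11 were higher and 7 lower in Mybx1, a split that became 6 and 11 with median-ratio scaling. Over all counted genes 24.2% rose and 41.1% fell in WT, and 7.67% and 7.1% in Mybx1. At 6 hpf 38.2% of all were higher in Mybx1 and 20.8% lower, close to the shares in this list. Desmosomal genes were among those that rose in WT, where one of 2 desmoplakin genes (DSP) went from 0.05 to 88.2 FPKM, the plakophilin gene pkp3a from 0.22 to 56.7 FPKM and dsc2l, a desmocollin, from 0.71 to 27.7 FPKM. In Mybx1 at 6 hpf these were at 1.04, 1.67 and 0.58 FPKM. In eggs 4 genes of this list were higher and 1 lower in Mybx1 (3 and 1 with median-ratio scaling, 6 and 1 with TPM). Over all counted genes 8.85% were higher and 6.7% lower there. The lower one was the desmoglein gene dsg2.1, by 5.29-fold in eggs (3.97 to 7.16) and by 11.5-fold at 6 hpf (9.08 to 14.8). The plakophilin gene PKP3 was among the higher ones, at 9.82 FPKM in Mybx1 eggs against 3.51 FPKM in WT eggs. One of 2 plakoglobin genes (JUP), relatives of beta-catenin, is named after its values were seen, and rose in WT from 33.7 to 116 FPKM and was at 68.7 and 83.7 FPKM in Mybx1. Among genes that fell in WT, nectin3b, an adhesion molecule of the immunoglobulin family, went from 57.3 to 4.32 FPKM, against 36.6 and 25.3 FPKM in Mybx1. One of 2 genes with the symbol ARVCF, a relative of delta-catenin, fell in WT from 29.3 to 2.98 FPKM and was at 46.8 and 37.8 FPKM in Mybx1. The actin-binding gene LIMA1 fell in WT from 74.1 to 19.8 FPKM and was at 110 and 72.7 FPKM in Mybx1. All 3 were higher in Mybx1 than in WT at 6 hpf. The scaffold gene MAGI1, here one of 2 with that symbol, rose in WT from 25.3 to 219 FPKM and was at 35.4 and 40.5 FPKM in Mybx1.

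Most genes for the trafficking and turnover of E-cadherin stayed within 2-fold in WT. Of 23 matched genes 1 rose, 5 fell (5 and 2 with median-ratio scaling), 14 stayed within 2-fold and 3 were under the filter. In Mybx1 1 rose, none fell and 20 stayed. Over all counted genes 24.2% rose and 41.1% fell in WT, and 7.67% and 7.1% in Mybx1. The single rise in this list was the same gene in both genotypes, EGFR, the receptor of epidermal growth factor. It was at 0.87 and 4.99 FPKM in WT and at 2.81 and 16.5 FPKM in Mybx1. The ligand gene egf was 10.7-fold higher in Mybx1 eggs (6.92 to 17.5), at 7.25 against 0.68 FPKM, and rab5b, a small GTPase of early endosomes, was 6.03-fold higher (4.60 to 8.03), at 27.6 against 4.58 FPKM. One of 2 genes for the protease furin (FURIN) fell in WT from 13.9 to 0.89 FPKM and was at 19.9 and 21.4 FPKM in Mybx1. Of 2 genes for the clathrin adaptor subunit AP2M1 both fell in WT. One went from 72.1 to 8.91 FPKM in WT and was at 66.7 and 63.0 FPKM in Mybx1. The other differed by -1.42 on the log2 scale in WT, a fall not called with median-ratio scaling (-0.70). In Mybx1 it was at 86.4 and 63.3 FPKM. At 6 hpf 9 of these genes were higher in Mybx1 and none lower, a split that became 5 and 5 with median-ratio scaling. Over all counted genes 38.2% were higher and 20.8% lower there.

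Of the 7 matched Epcam partner genes none rose in WT and 2 fell (1 and 1 with median-ratio scaling), and none was called in Mybx1. Over all counted genes 24.2% rose and 41.1% fell in WT, and 7.67% and 7.1% in Mybx1. The protease inhibitor gene spint1b was at 111 and 19.9 FPKM in WT, a 5.55-fold fall (4.88 to 6.33), and at 127 and 106 FPKM in Mybx1. The matriptase gene st14a was at 215 and 106 FPKM in WT and at 244 and 207 FPKM in Mybx1, and its fall in WT was not called with median-ratio scaling (-0.28). The claudin gene cldn7b, whose product binds Epcam in mammals, was at 102 and 56.4 FPKM in WT and at 152 and 199 FPKM in Mybx1, 3.53-fold higher than WT at 6 hpf (3.24 to 3.84). Between the 6 hpf libraries epcam itself differed by 1.09-fold. Of the 6 counted partners 2, cldn7b and spint1b, were called higher in Mybx1 and none lower (2 and 1 with median-ratio scaling). Over all counted genes 38.2% were higher and 20.8% lower there. The partner gene spint1a stood below WT in Mybx1, at 49.2 against 73.8 FPKM, and was not called.

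Of 12 matched repressors of cadherin genes 7 rose in WT and none fell, where 24.2% of all counted genes rose and 41.1% fell. Another 1 stayed within 2-fold and 4 were under the filter. In Mybx1, where 7.67% of all counted genes rose and 7.1% fell, 1 rose, none fell, 4 stayed and 7 were under the filter. At 6 hpf 7 were lower in Mybx1 and none higher (9 and 0 with median-ratio scaling, 6 and 0 with TPM). Over all counted genes 20.8% were lower and 38.2% higher there. The Snail gene snai1a was the most abundant, at 31.4 and 138 FPKM in WT and at 36.6 and 51.3 FPKM in Mybx1. Its relative snai2 rose in both, from 1.02 to 26.7 FPKM in WT and from 6.54 to 20.9 FPKM in Mybx1. The gene zeb1a, a zinc finger and homeodomain repressor, was at 12.7 and 36.8 FPKM in WT and at 2.99 and 4.57 FPKM in Mybx1, 4.25-fold lower in the mutant eggs (3.11 to 5.92).

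The beta-catenin destruction complex, which marks beta-catenin for degradation, changed in both directions. Of 15 matched genes 4 rose and 3 fell in WT, and none rose and 2 fell in Mybx1, and with TPM 3 rose and 7 fell in WT. Over all counted genes 24.2% rose and 41.1% fell in WT, and 7.67% and 7.1% in Mybx1. At 6 hpf 4 were higher and 3 lower in Mybx1 (2 and 4 with median-ratio scaling), where 38.2% of all counted genes were higher and 20.8% lower. The kinase gene gsk3bb rose in WT from 1.57 to 21.6 FPKM and was at 8.11 and 10.98 FPKM in Mybx1. The casein kinase gene csnk1a1 rose in WT from 104 to 292 FPKM and was at 78.1 and 106 FPKM in Mybx1. The F-box gene FBXW11, which recognises phosphorylated beta-catenin, fell in WT from 312 to 48.8 FPKM, a 6.40-fold fall (5.87 to 6.98), and was at 399 and 230 FPKM in Mybx1. The gene fbxw11a fell in both genotypes, from 77.4 to 13.8 FPKM in WT and from 60.7 to 20.9 FPKM in Mybx1. Of the scaffold axin2, also a target of Wnt signalling, the level was 23.3 and 50.9 FPKM in WT and 15.9 and 7.33 FPKM in Mybx1, 6.94-fold lower in Mybx1 at 6 hpf (5.59 to 8.71). Its stage changes were close to the threshold, and the WT rise was not called with TPM (0.84) nor the Mybx1 fall with median-ratio scaling (-0.94).

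Of 13 matched nuclear partners of beta-catenin, 3 rose and 4 fell in WT and none did either in Mybx1. Over all counted genes 24.2% rose and 41.1% fell in WT, and 7.67% and 7.1% in Mybx1. At 6 hpf 3 were higher and 1 lower in Mybx1, where 38.2% of all counted genes were higher and 20.8% lower. For the Polycomb subunit CBX8, both of 2 genes fell in WT. One went from 13.7 to 0.58 FPKM in WT and was at 24.2 and 14.2 FPKM in Mybx1. The other went from 2.92 to 0.41 FPKM in WT and was at 7.78 and 5.57 FPKM in Mybx1. With pygo1 the 2 CBX8 genes made up the 3 called higher in Mybx1 at 6 hpf. Whether CBX8 belongs among the nuclear partners is a choice of the list and was not tested, and these counts depend on it. The coactivator gene pygo1 fell in WT from 6.42 to 0.24 FPKM and was at 7.49 and 6.66 FPKM in Mybx1. In the other direction, the repressor gene TCF7L1 was at 6.22 and 40.7 FPKM in WT and at 6.76 and 7.98 FPKM in Mybx1, and ctnnbip1, an inhibitor that keeps beta-catenin from TCF proteins, was at 63.2 and 93.8 FPKM in WT and at 75.8 and 79.7 FPKM in Mybx1. Of 24 matched Wnt ligands, receptors and antagonists 12 rose and 2 fell in WT, with 5 under the filter. In Mybx1 4 rose and 1 fell, with 11 under the filter. At 6 hpf 12 were lower and none higher in Mybx1 (11 and 1 with TPM), with 7 under the filter. Over all counted genes 24.2% rose and 41.1% fell in WT, while 7.67% rose and 7.1% fell in Mybx1. At 6 hpf 20.8% of all counted genes were lower in Mybx1 and 38.2% higher. For the receptor FZD7, one of 2 genes rose in both genotypes, from 0.62 to 195 FPKM in WT and from 1.14 to 8.56 FPKM in Mybx1. The antagonist gene SFRP1, one of 2 with that symbol, was at 7.54 and 209 FPKM in WT and at 14.1 and 12.1 FPKM in Mybx1. The ligand gene wnt11f2, which acts on gastrulation movements, rose from 0.25 to 76.7 FPKM in WT and from 1.73 to 12.7 FPKM in Mybx1, and wnt5b was at 0.14 and 43.7 FPKM in WT and at 0.65 and 0.88 FPKM in Mybx1. Of 10 matched target genes of beta-catenin 8 rose in WT (6 with TPM, without axin2 and lef1) and 2 were under the filter. At 6 hpf 7 were lower in Mybx1. Over all counted genes 24.2% rose in WT and 20.8% were lower in Mybx1 at 6 hpf. In WT eggs 6 of the 10 were listed at 0. A gene at 0 there passes the filter only by being high at 6 hpf, so the WT count favours rises. The ventral homeobox gene vox rose in both genotypes, from 0.13 to 224 FPKM in WT and from 0.28 to 25.5 FPKM in Mybx1. The gene chrd, for an antagonist of bone morphogenetic proteins, was listed at 0 and at 178 FPKM in WT and at 0.042 and 0.10 FPKM in Mybx1, and lef1 was at 24.6 and 22.1 FPKM in WT and Mybx1 at 6 hpf. The target list shares axin2 and lef1 with the lists above.

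**Figure D4:**
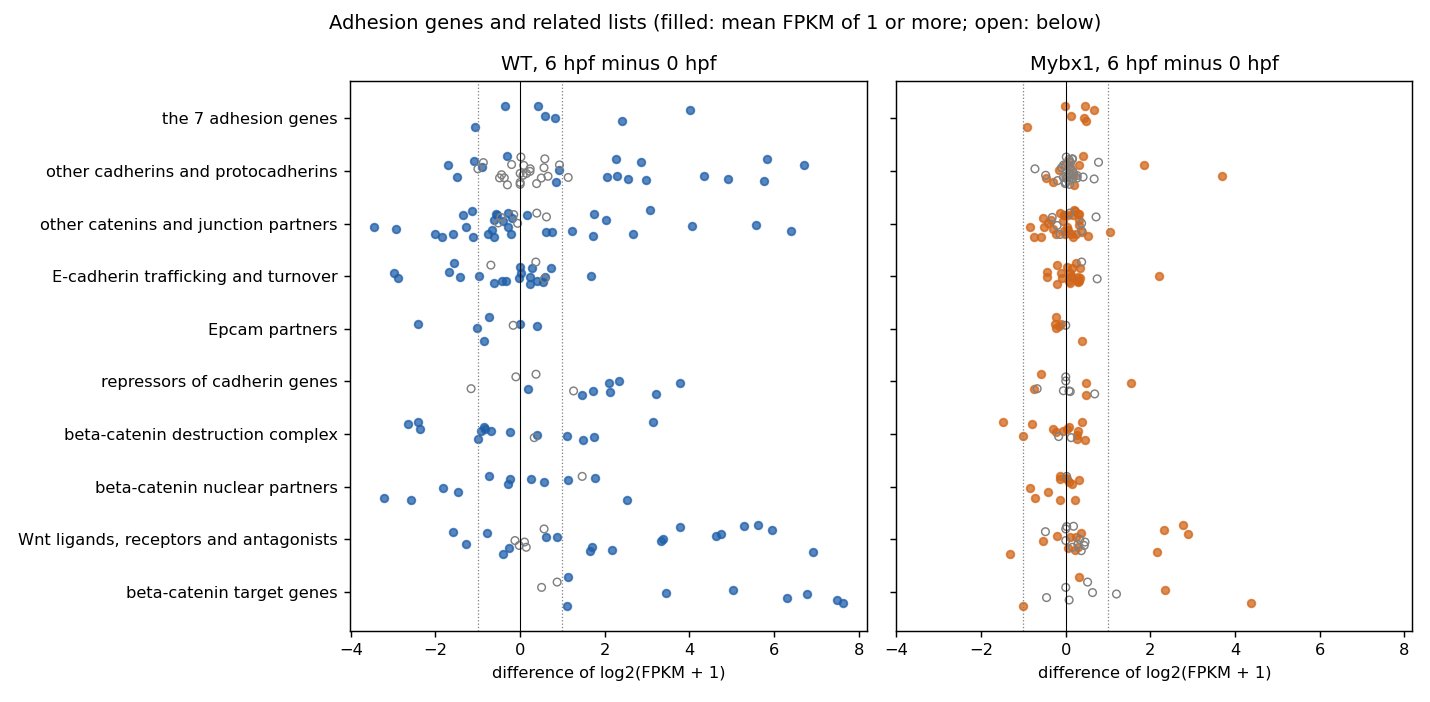
Difference of log2(FPKM + 1) from 0 to 6 hpf for the 7 adhesion genes and 9 lists of related genes, in WT on the left and in Mybx1 on the right. Each point is 1 gene, filled where its mean FPKM over the 2 libraries is at least 1 and open below that, and dotted lines mark 2-fold. The filled Mybx1 points lie mostly between the dotted lines, as in the junction partner list with 1 of 31 filled points past them, against 9 above and 9 below in WT (11 and 4 with median-ratio scaling). Over all counted genes 24.2% rose and 41.1% fell in WT, and 7.67% and 7.1% in Mybx1.

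By pattern over the 4 libraries, each of the 7 genes had nearer neighbours outside the set than within it. Far more genes lie outside the set than in it, so a nearer neighbour outside says nothing about the set. Likeness was measured as the Euclidean distance between log2(FPKM + 1) values centred on each gene's mean over the 4 libraries. The closest pair was ctnna1 and ctnnd1 (0.33), the 2 beta-catenin genes were 1.83 apart, and the farthest pair was cdh2 and epcam (4.47). Among 7039 genes with a symbol of their own and a mean FPKM of at least 10, the nearest to cdh1 was lman2 (0.028), to cdh2 gnl3 (0.27), to epcam bub1ba (0.055) and to ctnnb1 hnrnpl (0.093). The gene hnrnpl, for an RNA-binding splicing regulator, was at 137 and 757 FPKM in WT and at 173 and 249 FPKM in Mybx1, and gnl3, for a nucleolar GTPase, at 6.46 and 108 FPKM in WT and at 2.58 and 5.78 FPKM in Mybx1. The nearest to ctnnb2 was si:dkeyp-68b7.5 (0.094), to ctnna1 nhp2 (0.054) and to ctnnd1 cab39 (0.038). With 4 points per gene such likeness is a description only.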

How the data were processed

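The authors deposited 1 table of FPKM values with a column for each of the 4 libraries. Per the submitters' processing notes, the tools were HTSeq 0.6.1, TopHat2 2.0.12 and Bowtie2 2.2.3 with the build GRCz10, without a role for each. Annotation, FPKM formula, strand and the handling of reads that fit several genes: not given in the sources used here. A change in total RNA per embryo cannot be seen on this scale.

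The deposited FPKM gave library totals that lay within 0.00106 of a whole number. At these totals 97.3% of 1931 low genes had a whole length (to within 0.02 of a base), against 48.2% at 2 times the totals. The smallest whole reads that give all 4 values of a gene, each within 0.01 of a read, were used for exact Poisson and Clopper-Pearson intervals. They are lower limits, so intervals are if anything too wide. The recovery and the calls were tested on simulated data. Of 31870 identifiers 81.9% had a symbol in a table of gene names, some in the human form. Where a list's symbol was absent, all genes with the family's human symbol were taken. The rule for named genes takes the 7 genes and, from each list, the 4 largest differences in each comparison and the most abundant gene. The text gives values for part of the list genes so chosen, picked with their values known. The nearest genes by pattern and the marker lists are named besides. Genes and lists were chosen with earlier results of these data known. Alternatives were pseudocounts of 0.1 and 5, no filter, a mean FPKM of 5, TPM, median-ratio scaling, and thresholds of 1.5-fold and 4-fold. Python 3.11.15, pandas 2.3.3 and scipy 1.17.1 were used.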

Additional observations from a re-analysis of the deposited data

Results flagged for a closer look

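For 2 of the genes the Mybx1 library lay above WT at 0 hpf and below it at 6 hpf on the FPKM scale, each by more than counting error. The difference between the 2 stages was not tested, since there is 1 library per group. For ctnnb1 the ratio of Mybx1 to WT went from 1.19 at 0 hpf to 0.313 at 6 hpf, a difference of -1.93 on the log2 scale. For ctnnd1 it went from 1.16 to 0.874, a difference of -0.40, and with TPM its 6 hpf difference turned positive (0.03). With median-ratio scaling cdh1 (0.22 at 0 hpf, -0.11 at 6 hpf) and ctnnb2 (0.35, -0.27) also changed sign in this way. Which genes cross therefore depends on the scaling.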

How the results depend on the processing

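No paired analysis was possible because each group holds 1 library. The differences of cdh2 and ctnnb1 in WT by stage and at 6 hpf kept their direction and passed 2-fold under every alternative. At a 4-fold threshold ctnnb1 at 6 hpf (-1.67) was not called, which left 1 gene, cdh2, lower in Mybx1. With that threshold epcam was not called in WT either, so 0 fell there. Scaling by median ratios took the all-gene median from -0.57 to 0.16 in WT by stage and from 0.49 to -0.24 at 6 hpf, rises made up 56.2% of WT calls in place of 37.0%, higher calls in Mybx1 at 6 hpf 42.2% in place of 64.8%, and 5 of the 7 genes rose and 0 fell in WT. With TPM those medians were -0.80 and 0.71. With a pseudocount of 0.1, 1 gene rose in Mybx1 and 1 was lower in its eggs, both cdh2. At 1.5-fold 1 rose and 1 fell in Mybx1, 1 was lower in its eggs and 1 was higher at 6 hpf. Of 35 single values 9 had the opposite sign with median-ratio scaling, 1 with TPM and 0 elsewhere, none of them called. Over all genes, counts moved by over 1.5 times as follows (higher, lower). At 4-fold they were 2013 and 3004 in WT, 565 and 102 in Mybx1, 225 and 191 between eggs, and 2632 and 1362 at 6 hpf. With a pseudocount of 5 they were 2233 higher in WT, 502 and 550 in Mybx1, 358 and 439 between eggs, and 3863 and 1991 at 6 hpf. At a mean FPKM of at least 5 they were 2003 higher in WT, 410 higher in Mybx1, 524 and 613 between eggs, and 2085 lower at 6 hpf. At 1.5-fold they were 2670 lower in Mybx1 and 2579 and 1961 between eggs. With median-ratio scaling they were 3946 and 5398 at 6 hpf, in place of 6035 and 3284. Depth limits cdh2 in eggs, with 27 and 67 reads.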
